A study of Mus musculus with 6 samples.

Results

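The genes described here are those of the switch that takes a resting T cell out of G1 phase: the cyclins Ccnd2, Ccnd3, Ccne1 and Ccne2, the cyclin-dependent kinases (CDKs) Cdk2, Cdk4 and Cdk6, and the CDK inhibitors Cdkn1a, Cdkn1b and Cdkn2c. They were chosen by name, with earlier results of these data known. They are 10 genes of the 54532 in the deposited table, and all 10 passed the filter on low counts that left 14530 genes. The 3 idelalisib libraries came from C57BL/6 splenic CD4+ T cells kept for 72 h in Th1 conditions, which polarise towards T helper 1 cells, with the drug present. The 3 control libraries came from the same kind of cells kept equally long in those conditions without it. Idelalisib inhibits p110 delta, the leukocyte-enriched catalytic subunit of phosphoinositide 3-kinase (PI3K), and the series asks what it does to T cell activation, proliferation, differentiation and survival. No source used here gives the dose or says whether control wells received solvent. The labels call the libraries biological replicates but do not tie them to separate mice. The p-values thus weigh the group difference against the spread between these cultures, which may not be a spread between mice.

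Cyclin D binds CDK4 or CDK6 and starts the phosphorylation of the retinoblastoma protein, and cyclin E with CDK2 completes it, which frees E2F factors to switch on S phase genes. INK4 proteins such as p18 (Cdkn2c) block CDK4 and CDK6, whereas the Cip/Kip proteins p21 (Cdkn1a) and p27 (Cdkn1b) block cyclin E with CDK2 and can also help cyclin D complexes to assemble. Resting lymphocytes hold much p27, which is lost as they enter the cycle, and FOXO factors, which PI3K signalling through AKT keeps out of the nucleus, can activate Cdkn1b transcription.

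Library totals ranged from 13372318 to 16770452 counts, and trimmed mean of M-values (TMM) factors lay between 1.046 and 1.062 in idelalisib and between 0.942 and 0.955 in control libraries. Idelalisib replicate 2 was the library farthest from the rest of its group. Its chi-square statistic per degree of freedom was 12.6 against replicate 1 and 20.3 against replicate 3, beside 9.91 between those and 4.99 to 6.01 among control libraries. Levels are given as CPM, read counts scaled to a common library total with these factors. All 6 T cell markers were detected, with a summed level of 1527 to 1797 CPM in idelalisib and 1764 to 1881 CPM in control libraries. With idelalisib 2 of them were called higher (Cd3e and Cd3g, log2 fold change 0.25 and 0.35), 1 lower (Lck, -0.40) and 3 were not called. Of the 8 B cell markers, 6 passed the filter and 4 of these were higher with idelalisib, with a summed level of 24.1 to 28.5 CPM against 19.8 to 20.8 CPM in control libraries. Most of that sum was Ebf1, which was not called (log2 fold change -0.07). The 4 called B cell genes, Cd79a, Cd79b, Pax5 and Bank1, were 2.49-fold, 2.67-fold, 2.39-fold and 2.76-fold higher with idelalisib, each at under 3 CPM, and the list median was 1.29 on the log2 scale. Of the 7 myeloid markers 1 passed the filter (Cd68, lower with idelalisib), and the natural killer cell receptor gene Ncr1 and the plasmacytoid dendritic cell gene Siglech had no count in any library. Both CD8 T cell genes were tested and 1 was higher, with a sum of 7.24 to 9.50 CPM in idelalisib and 4.43 to 7.86 CPM in control libraries. Of 5 natural killer cell genes 2 were tested and 1 was higher (Klrk1), and of 5 dendritic cell genes 2 were tested, with a sum of 8.24 to 11.5 CPM in idelalisib and 11.0 to 12.5 CPM in control libraries. The part of other cell types in the results below was not tested. Libraries from bulk cultures cannot tell fewer cells of a kind from less RNA per cell.

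Most genes of the set were called higher with idelalisib, and the inhibitors p21 and p27 were called lower. The D cyclins were not called, with log2 fold changes of -0.01 for Ccnd2 and 0.31 for Ccnd3. Of the 10 genes, 6 rose and 2 fell past the threshold of 0.05 on p-values that were adjusted over all tested genes (Benjamini-Hochberg, quasi-likelihood test of edgeR). Of all 14530 genes tested, 44.6% were called, 22.2% higher and 22.4% lower. The risers were both E cyclins, all 3 CDKs and Cdkn2c, and the genes that fell were Cdkn1a and Cdkn1b. Without idelalisib replicate 2 the counts were also 6 and 2, with Ccnd3 in place of Cdk2. The median log2 fold change was 0.35 over the set and 0.01 over all tested genes. CPM values of the groups did not overlap for 8 of the 10 genes, and for 54.6% of all tested genes.

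**Figure D1:**
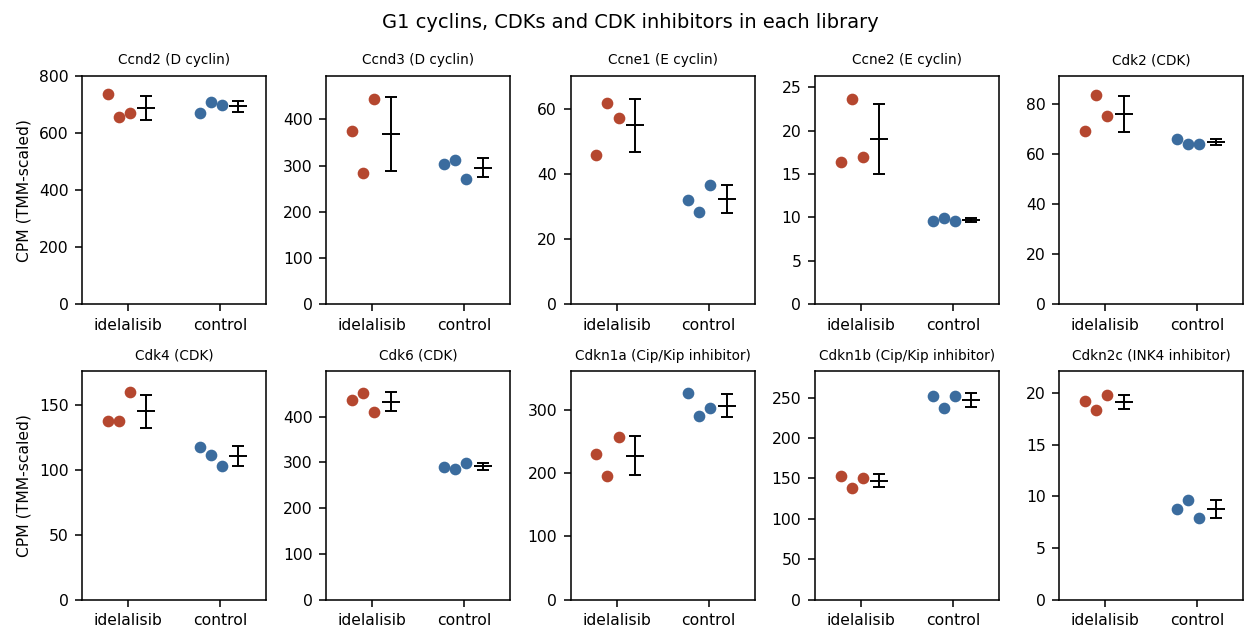
Level of each gene (vertical axis, TMM-scaled CPM from 0) in the 3 idelalisib and 3 control libraries; points are libraries, and the bar beside them is the mean with its SD. The groups overlap for Ccnd2 and Ccnd3 and are separate for the other 8 genes, with Cdkn1a and Cdkn1b lower and the rest higher with idelalisib.

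The D cyclins did not pass the test. Ccnd2 encodes cyclin D2, a growth-factor-induced cyclin of lymphocytes (ENSMUSG00000000184, mm10 chromosome 6, 127125162 to 127152193, minus strand). It stood at 736, 657 and 671 CPM in idelalisib libraries and at 672, 711 and 699 CPM in control libraries. The ranges lay inside one another, and the log2 fold change was -0.01 with a 95% confidence interval of -0.18 to 0.15 (adjusted p = 0.908 by edgeR).

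Ccnd3 encodes cyclin D3, the D cyclin needed for the expansion of immature T cells (ENSMUSG00000034165, chromosome 17, 47505051 to 47599691, plus strand). It was at 375, 284 and 444 CPM in idelalisib libraries and at 303, 313 and 272 CPM in control libraries. Idelalisib replicates 1 and 3 were above every control library, whereas idelalisib replicate 2 fell within the control range. The log2 fold change was 0.31 (SE 0.14, interval 0.01 to 0.62, adjusted p = 0.0832 by edgeR). Without idelalisib replicate 2 it was 0.48 and passed (adjusted p = 3.82e-05 by edgeR), and it also passed under 4 of the other 13 alternatives.

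Cyclin E transcripts rose. Ccne1, which encodes cyclin E1 (ENSMUSG00000002068, chromosome 7, 38097984 to 38107534, minus strand), had 46.0, 61.9 and 57.2 CPM in idelalisib libraries and 32.2, 28.2 and 36.7 CPM in control libraries. Every idelalisib library was above every control library, a 1.70-fold rise (log2 fold change 0.77, SE 0.12, adjusted p = 0.000212 by edgeR).

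Ccne2, which encodes the paralogue cyclin E2 (ENSMUSG00000028212, chromosome 4, 11191351 to 11204779, plus strand), had 16.4, 23.6 and 17.0 CPM in idelalisib libraries and 9.64, 9.91 and 9.58 CPM in control libraries. The control libraries lay close together and all idelalisib libraries were above them, a 1.95-fold rise (log2 fold change 0.97, SE 0.16, adjusted p = 0.000233 by edgeR). Idelalisib replicate 2 held the highest value of both E cyclins, and without it the log2 fold changes were 0.68 for Ccne1 and 0.79 for Ccne2. Ints8, on the opposite strand, overlaps 17.4% of the exon bases of Ccne2, and since the strand setting of the counting is not given, their reads could be mixed. Ints8, chosen for this overlap, was at 54.4 ± 4.16 CPM in idelalisib and 49.8 ± 5.27 CPM in control libraries (SD, n = 3 each), a log2 fold change of 0.13 (adjusted p = 0.324 by edgeR).

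All 3 kinase genes rose, Cdk6 by the most. Cdk6, the cyclin D partner that predominates in many blood cells (ENSMUSG00000040274, chromosome 5, 3341485 to 3531008, plus strand), was at 437, 451 and 411 CPM in idelalisib libraries and 290.0, 285 and 298 CPM in control libraries. The groups were far apart relative to their spread, with a 1.49-fold rise (log2 fold change 0.57, SE 0.08, adjusted p = 4.10e-05 by edgeR).

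Cdk4, the other cyclin D partner (ENSMUSG00000006728, chromosome 10, 127063534 to 127067920, plus strand), was at 138, 138 and 160.1 CPM in idelalisib libraries and 118, 111 and 103 CPM in control libraries. All idelalisib libraries exceeded all control libraries, and the rise was 1.31-fold (log2 fold change 0.39, SE 0.09, adjusted p = 0.00271 by edgeR). Tspan31, on the opposite strand, overlaps 19.7% of the exon bases of Cdk4 and, chosen for this overlap, fell to 50.9 ± 5.21 CPM in idelalisib libraries, against 62.5 ± 5.25 CPM in control libraries (log2 fold change -0.29, adjusted p = 0.0272 by edgeR).

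Cdk2, the cyclin E partner (ENSMUSG00000025358, chromosome 10, 128697939 to 128705031, minus strand), had 69.3, 83.5 and 75.4 CPM in idelalisib libraries and 66.3, 63.9 and 64.2 CPM in control libraries. The groups did not overlap, but idelalisib replicate 1 was close to the highest control library. The log2 fold change of 0.23 (SE 0.09) was just inside the threshold (adjusted p = 0.0477 by edgeR). The call was lost in 10 of 14 alternatives, among them those that left out any single control library or idelalisib replicate 2, and the adjusted p reached 0.139.

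Promoter windows of 3 of the genes that rose are printed: those with E2F-like letters (Cdk2 and Cdkn2c), and that of Cdk4, the window with the most E-boxes. The windows run from 250 bases before to 50 bases after an annotated start (RefSeq, GRCm38.p6, the assembly called mm10), and 11 windows of 8 of the 10 genes were matched. No window was matched for Ccnd2 or Ccne2, so their promoters were not searched. The letters searched on both strands were TTCCCGC or TTCGCGC or TTGCCGC or TTGGCGC for E2F-like sites, CACGTG for the E-box that MYC and other factors can bind, and GTAAACA for FOXO-like sites. E2F-like letters occurred in 2 of the 11 windows and in 12.1% of 21263 windows of protein-coding genes. The E-box occurred in 3 of the 11 windows (Cdk4, Cdk6 and a second Cdkn2c window) and 7.84% of all, and the FOXO-like letters in 1 of the 11, upstream of Ccnd3, and 3.01% of all. Capitals mark these letters in the sequences, each on its gene's strand. The Cdk4 window (chr10:127063285-127063584, plus strand) holds the E-box 4 times, the Cdk2 window (chr10:128705002-128705301, minus strand) holds E2F-like letters 3 times, each on the other strand, and the Cdkn2c window (chr4:109666707-109667006, minus strand) holds them once. A match describes letters only and was not tied to binding.
Cdk4: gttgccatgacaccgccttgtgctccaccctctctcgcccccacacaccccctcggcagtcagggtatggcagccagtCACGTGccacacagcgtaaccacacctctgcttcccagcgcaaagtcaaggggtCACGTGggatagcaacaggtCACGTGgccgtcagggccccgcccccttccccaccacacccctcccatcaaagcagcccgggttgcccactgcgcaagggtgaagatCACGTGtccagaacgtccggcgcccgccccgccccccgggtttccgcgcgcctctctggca
Cdk2: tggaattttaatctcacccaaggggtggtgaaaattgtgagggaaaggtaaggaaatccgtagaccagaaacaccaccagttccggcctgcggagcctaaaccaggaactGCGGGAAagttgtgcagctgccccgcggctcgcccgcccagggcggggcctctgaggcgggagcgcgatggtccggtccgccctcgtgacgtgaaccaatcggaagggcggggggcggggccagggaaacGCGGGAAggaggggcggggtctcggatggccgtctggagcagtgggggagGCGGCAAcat
Cdkn2c: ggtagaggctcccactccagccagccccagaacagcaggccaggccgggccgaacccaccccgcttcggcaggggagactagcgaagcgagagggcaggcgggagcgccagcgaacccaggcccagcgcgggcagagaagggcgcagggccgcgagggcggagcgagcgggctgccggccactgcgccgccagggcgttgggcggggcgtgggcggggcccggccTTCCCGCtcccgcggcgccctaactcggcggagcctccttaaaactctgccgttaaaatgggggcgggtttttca

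The inhibitors moved in both directions. Cdkn1b, which encodes p27 (ENSMUSG00000003031, chromosome 6, 134920401 to 134925513, plus strand), was at 153, 138 and 150.0 CPM in idelalisib libraries and 252, 237 and 252 CPM in control libraries. All idelalisib libraries were well below all control libraries relative to the spread within groups, and the level was 1.68-fold lower with idelalisib (log2 fold change -0.75, SE 0.08, adjusted p = 5.52e-06 by edgeR). None of the 4586 words of 50 bases in its annotated transcripts occurs in transcripts of another gene, and it overlaps no other gene in the table.

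Cdkn1a, which encodes p21, a target of p53 (ENSMUSG00000023067, chromosome 17, 29090976 to 29100727, plus strand), had 230.4, 195 and 257 CPM in idelalisib libraries and 327, 291 and 303 CPM in control libraries. Every idelalisib library was below every control library, a 1.35-fold lower level (log2 fold change -0.43, SE 0.10, adjusted p = 0.00263 by edgeR).

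Cdkn2c, which encodes p18, rose by more than any other gene of the set (ENSMUSG00000028551, chromosome 4, 109660876 to 109667189, minus strand). It had 19.2, 18.3 and 19.8 CPM in idelalisib libraries and 8.76, 9.64 and 7.86 CPM in control libraries. The libraries of each group lay close together and the groups were separate, with a 2.18-fold rise (log2 fold change 1.12, SE 0.13, adjusted p = 1.85e-05 by edgeR). With p27 lower and p18 higher, the 2 genes of the set with the smallest adjusted p were both inhibitors and had opposite signs.

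**Figure D2:**
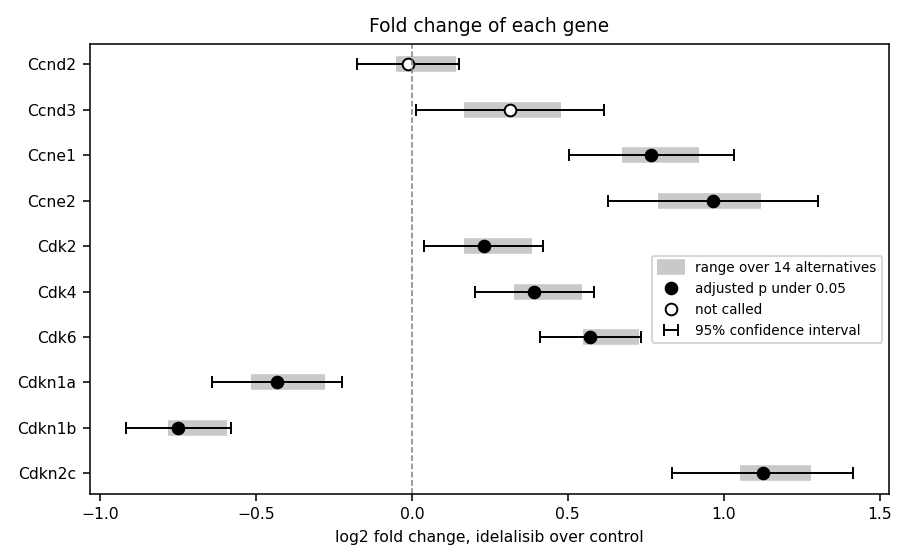
Log2 fold change of idelalisib over control (horizontal axis) for each gene, with its 95% confidence interval; the grey band is the range over 14 alternative analyses, and filled points passed an adjusted p under 0.05. The bands of 9 genes stay on one side of 0, and that of Ccnd2 spans it.

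Levels of different genes were compared per length, as CPM per kilobase of the deposited gene length. For the genes of the set that overlap another gene, this length equalled all annotated exon bases, not the length of a single transcript. The order and the shares per length may thus depend in part on the annotation. In idelalisib libraries the order began with Ccnd2 at 73.1 ± 4.51, Cdkn1a at 64.0 ± 8.66, Cdk4 at 44.7 ± 3.95 and Ccnd3 at 41.9 ± 9.17 CPM per kilobase (SD, n = 3). Cdkn1b at 32.3 ± 1.79 and Cdk6 at 31.0 ± 1.47 followed, and then Ccne1 at 20.7 ± 3.06, Cdk2 at 12.2 ± 1.15, Cdkn2c at 7.11 ± 0.269 and Ccne2 at 5.44 ± 1.15. In control libraries Cdkn1a led with 86.4 ± 5.27 CPM per kilobase, followed by Ccnd2 at 73.8 ± 2.15 and Cdkn1b at 54.2 ± 1.92. Cdk4 at 34.1 ± 2.29, Ccnd3 at 33.7 ± 2.43, Cdk6 at 20.8 ± 0.482, Ccne1 at 12.2 ± 1.59 and Cdk2 at 10.4 ± 0.208 came after them. Cdkn2c at 3.26 ± 0.332 and Ccne2 at 2.78 ± 0.0504 were the lowest in control libraries. With idelalisib the library ranges of Ccnd2 and Cdkn1a overlapped, as did those of Cdk4 and Ccnd3, of Ccnd3 and Cdkn1b, and of Cdkn1b and Cdk6. In control libraries only the neighbours Cdk4 and Ccnd3, and Ccne1 and Cdk2, overlapped.

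Ratios within a library do not depend on the scaling between libraries, and they are given as a description with no test. The inhibitor sums and shares below cover only genes of the set. They leave out the INK4 gene Cdkn2d, which was at 143.7 CPM in idelalisib and 145.4 CPM in control libraries. The summed level per length of the 3 inhibitors was 0.739, 0.696 and 0.759 times that of the 4 cyclins in idelalisib libraries, and 1.25, 1.10 and 1.18 times in control libraries. All idelalisib libraries were below all control libraries, a difference in the log2 ratio of -0.68. The side of 1 on which a library fell depended on the division by length, since from raw counts the ratio was 0.343, 0.342 and 0.359 in idelalisib and 0.579, 0.506 and 0.553 in control libraries. The difference in the log2 ratio was then -0.65. The shares within these 3 inhibitors were added after the data were seen. Cdkn1b made up 31.3 ± 1.85% in idelalisib and 37.7 ± 0.962% in control libraries, and Cdkn2c made up 6.91 ± 0.454% and 2.27 ± 0.301% (idelalisib and control, SD, n = 3 each). Both shares were separate between the groups, whereas Cdkn1a held 61.7 ± 2.26% in idelalisib and 60.0 ± 0.985% in control libraries, with overlapping ranges.

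Within the D cyclins Ccnd2 held 63.8 ± 4.99% in idelalisib and 68.7 ± 1.70% in control libraries, and within the E cyclins Ccne1 held 79.2 ± 2.12% in idelalisib and 81.2 ± 2.26% in control libraries. Both pairs of ranges overlapped. Of the 3 kinases, Cdk4 held 50.8 ± 3.16% in idelalisib and 52.1 ± 1.87% in control libraries, and Cdk6 held 35.3 ± 2.53% in idelalisib and 31.9 ± 1.58% in control libraries, again with overlap. The share of Cdk2 was 13.9 ± 1.17% in idelalisib and 16.0 ± 0.296% in control libraries, and there the groups were separate.

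**Figure D3:**
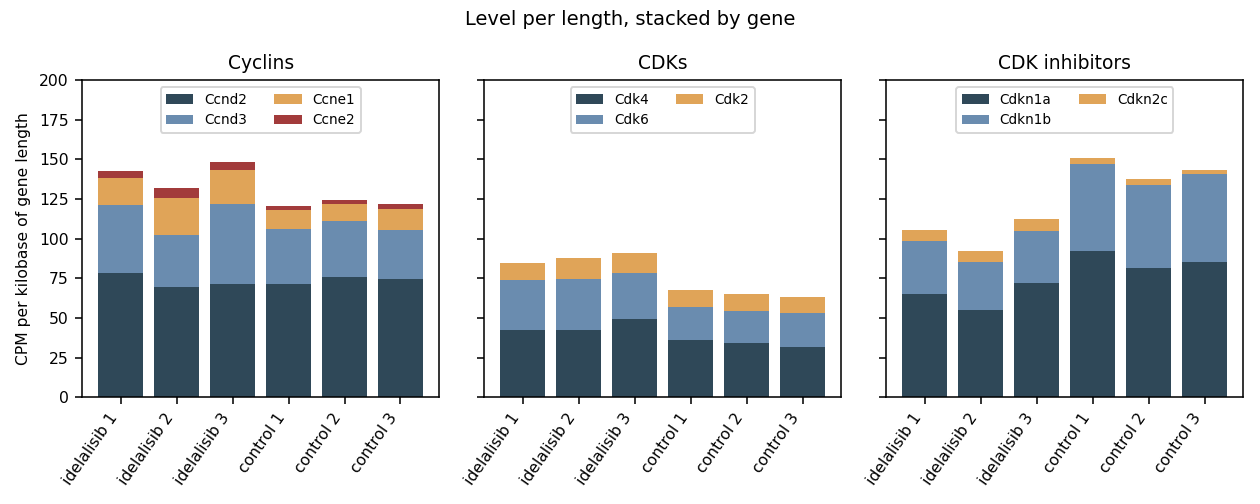
Level per length (vertical axis, CPM per kilobase of gene length) in each idelalisib and control library, stacked by gene for the 4 cyclins, the 3 CDKs and the 3 inhibitors of the set. The inhibitor bars are shorter and the CDK bars taller in all idelalisib libraries, and the inhibitor total per length is below the cyclin total in idelalisib libraries and above it in control libraries, which does not hold for raw counts.

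Of the remaining D cyclin, INK4 and Cip/Kip genes, 0 of 4 tested passed in edgeR, 0 had an unadjusted p under 0.05, and 0 passed in any of the 14 alternatives, DESeq2 included. Ccnd1, cyclin D1, had 11, 11 and 7 counts in idelalisib libraries and 23, 11 and 19 in control libraries (adjusted p = 0.116 by edgeR). Cdkn1c (p57) and Cdkn2a (p16 and p19) were likewise near 1 CPM, and Cdkn2b (p15) had at most 4 counts in a library and was not tested. Cdkn2d, the other INK4 gene with a sizeable level, was at 143.7 ± 31.2 CPM in idelalisib and 145.4 ± 4.47 CPM in control libraries, a log2 fold change of -0.02 (interval -0.29 to 0.26, adjusted p = 0.928 by edgeR). Its idelalisib libraries were at 140.1, 114 and 177 CPM, with replicate 2 lowest. Among idelalisib libraries, replicate 2 was also lowest for Ccnd2, Ccnd3, Cdk4, Cdkn1a, Cdkn1b and Cdkn2c. It was highest for Ccne1, Ccne2, Cdk2 and Cdk6.

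Cyclins of the later phases and Cdk1 all rose. Of this list 5 of 5 genes rose (100% called), with a median log2 fold change of 0.97. Of all tested genes 44.6% were called, 22.2% as higher. Ccnf, an F-box protein that marks substrates for degradation in G2, rose to 62.2 ± 9.80 CPM with idelalisib, against 25.1 ± 1.93 CPM in control libraries (log2 fold change 1.31, SE 0.12, adjusted p = 1.70e-06 by edgeR). Ccna2, the cyclin of S phase and G2, was at 148 ± 4.18 CPM in idelalisib and 72.7 ± 4.90 CPM in control libraries.

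Of the 3 pocket protein genes, whose products G1 CDKs phosphorylate, 1 fell, 1 rose and 1 did not pass the test. Rb1, the retinoblastoma gene, fell to 112 ± 10.4 CPM with idelalisib, against 165 ± 10.9 CPM in control libraries (log2 fold change -0.56, SE 0.09, adjusted p = 0.000192 by edgeR). Rbl1, its relative p107, rose to 165 ± 16.9 CPM, against 98.9 ± 3.70 CPM in control libraries (log2 fold change 0.74, SE 0.09, adjusted p = 1.88e-05 by edgeR). Rbl2, the relative p130, named after its values were seen, was at 90.1 CPM in idelalisib and 86.6 CPM in control libraries, a log2 fold change of 0.06 (adjusted p = 0.612 by edgeR). In the list of pocket proteins and MuvB subunits, which form a repressor of cell cycle genes in resting cells, 3 of 9 genes rose and 2 fell (55.6% called, against 44.6% of all tested genes), with a median of 0.07. The other named members were the MuvB subunit gene Lin54 at -0.46 and Mybl2, which encodes the MuvB partner B-MYB, at 0.39 on the log2 scale. The call of Mybl2 was lost without control replicate 3 (adjusted p = 0.0575 by edgeR).

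Of the 9 genes for the CDK-activating kinase and for CDK phosphorylation, 4 rose and 2 fell (66.7% called, against 44.6% of all tested genes), with a median log2 fold change of 0.08. Wee1 and Pkmyt1, whose kinases put inhibitory phosphates on CDKs, rose by 0.77 and 0.39 on the log2 scale. Mnat1, an assembly factor of the CDK-activating kinase, and Cdc37, the chaperone partner that loads CDK4 onto HSP90, fell by 0.44 and 0.36. Other genes of the list were named after their values were seen. Ccnh and Cdk7, also of the CDK-activating kinase, were at 0.36 and -0.07 (adjusted p = 0.0121 and 0.623 by edgeR). Cdc25c was at 0.33 (adjusted p = 0.0381 by edgeR), whereas Cdc25a at 0.08 and Cdc25b at -0.03 were not called. Without control replicate 3 only 1 gene of this list rose, and Pkmyt1 missed the threshold (adjusted p = 0.0667 by edgeR).

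In the list for degradation of G1 cyclins and p27, 6 of 14 genes rose and 1 fell, with a median of 0.18. The share called was 50%, near the 44.6% of all tested genes. Fbxw7, the substrate receptor for cyclin E, rose to 65.1 ± 5.97 CPM with idelalisib, against 44.9 ± 5.95 CPM in control libraries (log2 fold change 0.54, SE 0.11, adjusted p = 0.00112 by edgeR). Cks1b, the cofactor through which SKP2 recognises p27, rose by 0.50 on the log2 scale, while Skp2 itself, named beside its cofactor after its values were seen, was at 13.1 CPM in idelalisib and 14.7 CPM in control libraries (adjusted p = 0.510 by edgeR). Ambra1, the receptor for D cyclins, had a log2 fold change of -0.22 (adjusted p = 0.0370 by edgeR), a call lost in 9 of 14 alternatives, including each fit that left out 1 control library and those that left out idelalisib replicate 1 or 2.

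Among 14 p53 target genes 5 fell and 1 rose, with a median of -0.29. The share called, 42.9%, was close to the 44.6% of all tested genes. Mdm2, the ubiquitin ligase that restrains p53, fell to 146 ± 11.6 CPM with idelalisib, against 246 ± 11.9 CPM in control libraries (log2 fold change -0.75, SE 0.08, adjusted p = 8.97e-06 by edgeR), and Bbc3, which encodes the pro-apoptotic PUMA, fell by 0.63. The riser was Gtse1, a gene expressed in S phase and G2 whose product restrains p53, at 0.56.

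Of 11 transcription regulators linked to these genes 3 rose and 4 fell (63.6% called, against 44.6% of all tested genes), with a median log2 fold change of -0.10. Tfdp1, the dimer partner of E2F factors, and Foxm1, a driver of G2 genes, rose by 0.47 and 0.37 on the log2 scale. Trp53 and the FOXO genes were named after their values were seen. Trp53 was at 0.33 (adjusted p = 0.00531 by edgeR). Foxo1 was at -0.33 and Foxo3 at -0.29 (adjusted p = 0.00528 and 0.00955 by edgeR), whereas Foxo4, at 0.19, was not called (adjusted p = 0.131 by edgeR). Stat5b, which relays interleukin-2 signals, fell to 509 ± 28.1 CPM with idelalisib, against 681 ± 6.12 CPM in control libraries (log2 fold change -0.42, adjusted p = 0.000499 by edgeR). Myc, also named after its values were seen, was at 258 CPM in idelalisib and 222 CPM in control libraries. Its log2 fold change of 0.22 was not called (adjusted p = 0.0530 by edgeR), though its groups did not overlap. Mycn, near 2 CPM with idelalisib, had a log2 fold change of -0.72 (adjusted p = 0.0445 by edgeR), a call lost in 10 of 14 alternatives. These were the scalings by upper quartile and by library size alone, DESeq2, limma-voom, no count filter, the replicate block, and the fits that left out replicate 1 or 3 of either group. The list held 2 lower genes without control replicate 3, and 1 lower and 5 higher genes when scaled by library size alone. That 1 lower gene was Stat5b, which kept its call in all 14 alternatives. The calls of Foxo1 and Foxo3 were thus lost with that scaling.

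**Figure D4:**
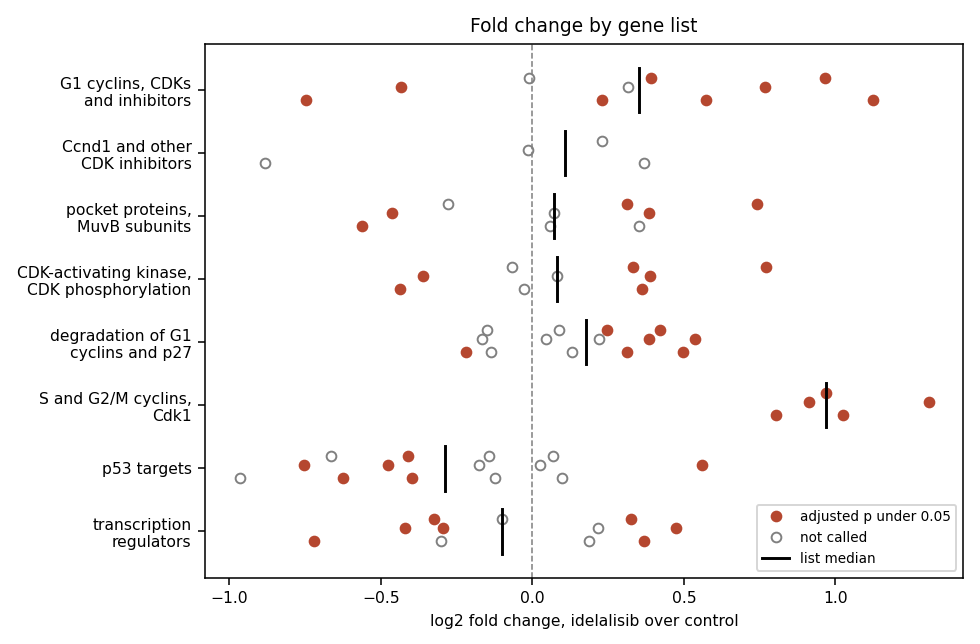
Log2 fold change of idelalisib over control (horizontal axis) for each tested gene of the set and of 7 lists of related genes; filled points passed an adjusted p under 0.05 and black lines are list medians. All 5 S and G2/M genes lie between 0.80 and 1.31, and the other lists have points on both sides of 0.

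The genes whose profile over the 6 libraries was most like that of Cdkn2c and of Cdkn1b were found by the root mean square difference of centred log2 CPM, among 8721 protein-coding genes averaging at least 10 CPM. For Cdkn2c they were Ccna2 at 0.056, Nxpe3 at 0.068 and Pigv, an enzyme gene of GPI anchor synthesis, at 0.070. For Cdkn1b they were Plcg1, the phospholipase C activated by the T cell receptor, at 0.018, Ccng2, an atypical cyclin, at 0.023 and the rhomboid protease gene Rhbdd1 at 0.040. Ccng2 was at 149 ± 8.93 CPM in idelalisib and 250.0 ± 4.23 CPM in control libraries, beside 147 ± 8.13 and 247 ± 8.73 CPM for Cdkn1b (idelalisib and control, SD, n = 3 each). These distances describe 6 libraries that differ mainly by treatment.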

How the data were processed

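The authors deposited unnormalised counts of reads for each gene in 6 libraries (3 idelalisib, 3 control), which were grouped by sample title. The tools listed per the submitters' processing notes are featureCounts 1.5.0-p3, HISAT2 2.0.5 and fastp, with build mm10. The strand setting is not given in the sources used here. The gene lengths deposited by the authors, the other quantity used, served only for levels per length.

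From these counts, filterByExpr (minimum count 10, minimum total 15) kept 14530 genes. TMM factors and edgeR 4.0.16 in R 4.3.3 were used, with the quasi-likelihood test, robust dispersions, group alone as the model and Benjamini-Hochberg adjustment over all tested genes. Positive fold changes mean higher with idelalisib. The SE is the log2 fold change divided by the root of its F value, and intervals are at 95%. On simulated counts for this comparison (5 runs, 200 changed genes of 14530), 54.3% of 1.5-fold, 73.4% of 2-fold and 92.4% of 4-fold changes were called, and 8.2% of calls were false on average. In the real comparison 44.6% of genes were called, and rates with that many changed genes were not simulated.

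The members and lists were chosen with earlier results of these data known. Named beyond the members were, in each list, up to 2 called genes that rose most and 2 that fell most (at least 1 CPM on average), all genes of the list around Ccnd1, and the 3 genes nearest in profile to the members with the largest rise and fall. Alternatives were RLE, upper-quartile and library-size scaling, DESeq2 1.42.0, limma-voom (limma 3.58.1), no count filter, dispersions that are not robust, a replicate block and the omission of each library. Overlaps and shared 50-base words were taken from GENCODE M21.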

Additional observations from a re-analysis of the deposited data

How the results depend on the processing

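Over 14 alternatives, 5 to 7 of the 10 genes were higher and 2 were lower in each. Without 1 library, 5 to 6 were higher and 2 lower. Ccne1, Ccne2, Cdk4, Cdk6, Cdkn1a, Cdkn1b and Cdkn2c kept their direction and their call in all 14. Scaling by library size alone put the median over all tested genes at 0.16 on the log2 scale, against 0.01 with TMM, and Cdkn1a was then at -0.28 and Cdkn1b at -0.59.

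Ccnd3 passed with upper-quartile scaling (log2 fold change 0.35, adjusted p = 0.0489 by edgeR), library size alone (0.47, 0.0137), DESeq2 (0.31, 0.0453) and no count filter (0.32, 0.00187). Without 1 library its log2 fold change ranged from 0.17 to 0.48. Cdk2 lost its call with RLE scaling (0.23, adjusted p = 0.0539 by edgeR), DESeq2 (0.22, 0.0834), limma-voom (0.23, 0.0549), no count filter (0.24, 0.0613), dispersions that are not robust (0.23, 0.0507) and the replicate block (0.23, 0.0814). Without 1 library Cdk2 ranged from 0.17 to 0.31. The cause was not tested.

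The labels do not say whether cultures with the same replicate number were paired. Deviations from the group means of same-numbered libraries correlated at 0.0764, -0.132 and -0.101, and not every library correlated best with its own number. With so few libraries per group, these correlations cannot decide whether the cultures were paired. The block called 2910 genes higher and 3051 lower, against 3223 and 3256 without it, and 5 of the 10 genes were higher and 2 lower.

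Counts in the lists moved as follows. The list for degradation of G1 cyclins and p27 held 0 lower genes with upper-quartile scaling, library size alone, no count filter or the replicate block, and 0 to 1 without 1 library. Scaled by library size alone, 2 p53 targets were higher, and of the transcription regulators 5 were higher and 1 lower. Without 1 library, 1 to 4 genes of CDK phosphorylation were higher, and 2 to 5 transcription regulators were lower. The Cdk4 share of the kinases, lower by 1.32 points with idelalisib, ranged from -3.06 to 0.031 points without 1 library. From raw counts not divided by length, the Cdkn2c share of inhibitors was higher by 3.32 points, against 4.64 per length; the shares of all 3 inhibitors were added after the data were seen. The further genes named by rule, not those named after their values were seen, had 406 refits. Of these, 380 kept sign and side of the threshold and 21 lost the call with the same sign. The other 5 changed sign with no call in either fit (Cdkn2d 4 times, Cdkn2a 1 time). Ccnd2, likewise not called, changed sign in 5 of 14.

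Ccnd1, Cdkn1c, Cdkn2a and Cdkn2b rest on few reads, which limits what their comparison can show.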
